A study of Mus musculus with 8 samples.

Results

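The genes described here encode 10 integrin subunits that epithelial cells are known to use for attachment: Itga1, Itga2, Itga3, Itga5, Itga6, Itgav, Itgb1, Itgb5, Itgb6 and Itgb8. They were chosen by symbol, from a list drawn up with earlier results of these data known. Of the 17276 genes in the deposited files, 9 were members of this set, and all 9 passed the filter on low counts (at least 0.598 CPM in 4 libraries, CPM being counts scaled to the library total) that left 11747 genes for testing. No level of Itgb8 is analysed here. The study compared hepatocytes kept static with hepatocytes exposed to shear stress, the drag of a moving fluid along a cell surface. Each group had 4 libraries, with replicate numbers 1 to 4 in both. All cells came from wild-type male C57BL/6N mice aged 6 to 8 weeks, and the groups differed by label in the treatment alone. The strength and duration of the shear stress, the culture conditions and the number of animals do not appear in the sources used here. Because nothing states whether replicates came from separate animals or cultures, p-values measure only the spread between these libraries.

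Integrins are receptors of the cell surface made of 1 α and 1 β subunit, and the pair decides which matrix protein is bound. The α3 and α6 subunits bind laminins, α1 and α2 bind collagens, and α5 and αv bind proteins with an RGD motif such as fibronectin and vitronectin. Many α subunits pair with β1, while β5, β6 and β8 pair with αv. The αvβ6 and αvβ8 integrins are also known to release TGF-β from its latent complex. In the liver, hepatocytes express α1β1, α5β1 and α9β1 as characteristic integrins, and the laminin receptors and αvβ6 are known mainly from bile duct epithelium and from injured tissue. Integrins link the matrix to actin through talin, kindlin and other adaptors, and they are counted among the mechanosensors of many cell types.

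The deposited expected counts summed to between 15067056 and 17935566 per static library and between 16225843 and 16732203 per shear stress library. A floor of 3 counts therefore corresponded to between 0.167 and 0.199 CPM, for counting error only. Levels are given in TPM, which is scaled to transcript length as well as to the library total, so that genes can be set side by side. Hepatocyte markers summed to 51993 to 64699 TPM in the static group and to 39986 to 55328 TPM in the shear stress group, and 7 of 8 fell. By the test given below, 31% of all tested genes fell and 30.1% rose. Of 10 bile duct markers, 5 were tested and 4 rose, among them Spp1, Epcam and Cldn4. Their sum was between 143 and 1341 TPM static and between 397 and 2159 TPM under shear stress, mostly from Spp1, and Krt19 stayed below 1 TPM in every library. Endothelial markers summed to at most 13.7 TPM, stellate cell markers to at most 6.83 TPM and lymphocyte markers to at most 5.47 TPM in any library. The Kupffer cell list reached 78.4 TPM, nearly all from Cd68. No marker in the files was at 0 in all 8 libraries. The part of these marker levels in the integrin results was not tested, and a change in the number of cells of a type cannot be told apart from a change in RNA per cell.

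Shear stress libraries held more RNA for the laminin-binding subunits α3 and α6, for αv, for its partner β6 and for the collagen-binding subunit α2. Levels of the α1, α5 and β5 genes did not pass the test in either direction. The β1 gene passed under some scalings of the libraries and not under others. In edgeR's quasi-likelihood test with the replicate number as a block, 5 of the 9 members rose, where 30.1% of all tested genes did. Itgb6 passed the filter through its shear stress libraries alone, with no static library above it, so a tested Itgb6 had to differ; of the other 8 members 4 rose. None fell, where 31% of all tested genes did, and the count of members lower was also 0 at an unadjusted p under 0.05 in edgeR and by DESeq2 and limma. Either direction together covered 61.1% of tested genes, so a call alone was common in this comparison. Without the block 4 members rose and none fell, against 24.9% and 23.7% of all tested genes (48.6% in either direction). For 3 members the static and shear stress ranges in CPM did not overlap, all of them higher under shear stress, as for 23.7% of all genes. Itgb6 is 1 of these 3, and the filter that kept it set its groups apart in advance. Of all genes 21.5% were apart and lower, and 45.3% were apart in either direction. CPM in these ranges, and in the pair differences below, was scaled with the TMM factors of the fit, which adjust the library totals. In 6 members the shear stress library was above the static one of the same number in all 4 pairs, as for 33.7% of all genes. Itgb6 is among these 6, again through the filter. The median log2 fold change was 0.76 over the 9 members and -0.002 over all tested genes.

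**Figure D1:**
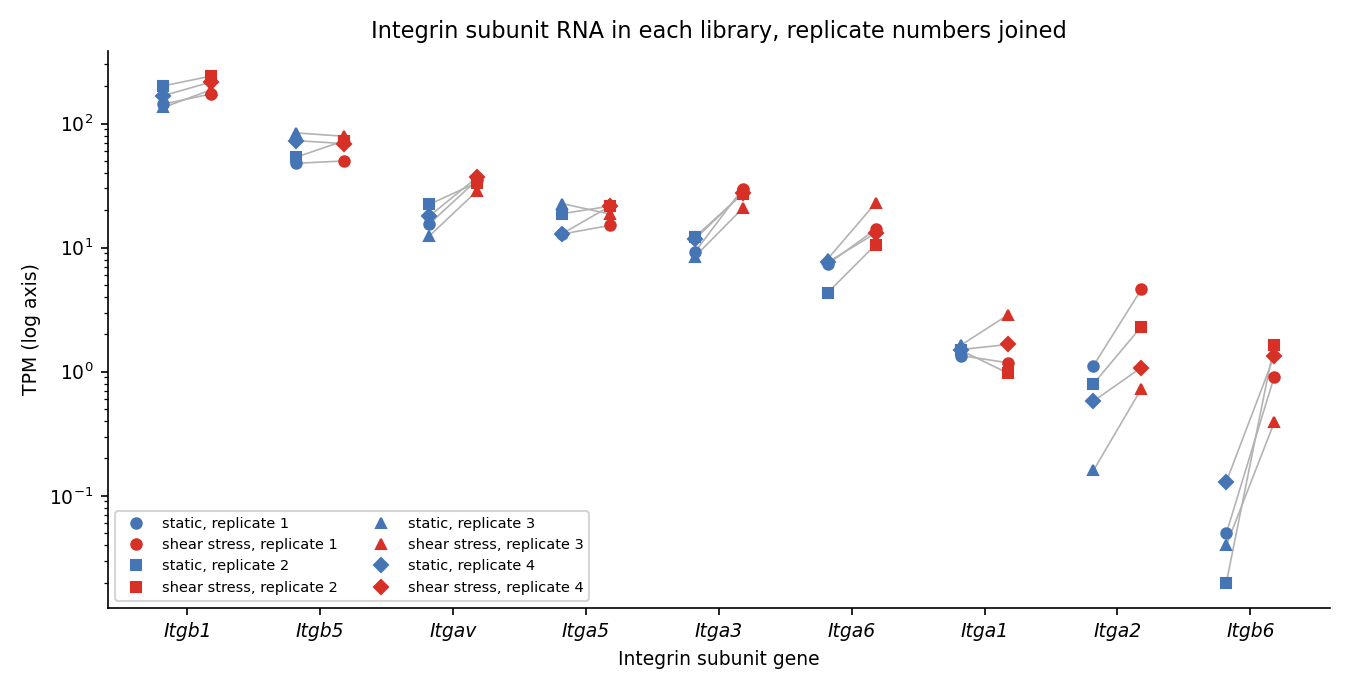
Level of each of the 9 integrin genes in each of the 8 libraries, in TPM on a log axis, with libraries of the same replicate number joined by a line. Itga3, Itgav, Itga6 and Itgb6 stood higher in all 4 shear stress libraries than in any static one, while the ranges of Itgb5, Itga5, Itga1, Itga2 and Itgb1 overlapped.

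Itga3 encodes the α3 subunit, a laminin receptor of epithelial basement membranes. Its level was 9.21, 12.1, 8.47 and 11.7 TPM in static replicates 1 to 4 and 29.9, 27.3, 20.8 and 27.5 TPM in the shear stress replicates. The lowest shear stress library lay well above the highest static one. The mean was 10.4 ± 1.82 TPM static and 26.3 ± 3.89 TPM under shear stress (SD, n = 4). The fitted rise was 2.17-fold (log2 1.12 ± 0.11 SE, edgeR adjusted p = 2.19e-05). The TPM means are further apart than the fitted fold because TMM factors, which the fit used and TPM does not, were above 1 in every shear stress library and below 1 in every static one. Pair differences in log2 CPM were 1.49, 0.95, 0.99 and 1.02 for replicates 1 to 4.

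Itga6 encodes the α6 subunit, which binds laminin with β1 or, in hemidesmosomes, with β4. It stood at 7.37, 4.34, 8.13 and 7.63 TPM in the static libraries and at 14.0, 10.6, 22.9 and 13.1 TPM in the shear stress libraries. Replicate 2 was the lowest of both groups and replicate 3 the highest of both. The groups were apart in TPM but touched in CPM after TMM scaling, with 37.9 in shear stress replicate 2 and 38.2 in static replicate 3. The rise was 1.85-fold (log2 0.89 ± 0.12 SE, edgeR adjusted p = 0.000146). Pair differences in log2 CPM ran from 0.56 to 1.20. Without the block the log2 difference was 0.90 ± 0.29 (adjusted p = 0.0304), and that unblocked call was lost when static replicate 1 was left out (adjusted p = 0.05004) and when shear stress replicate 3 was (adjusted p = 0.0728). Itgb4, the β4 partner of α6, was not above 0.10 TPM in any library and was not tested.

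Summed over Itga3 and Itga6, the level was 16.5 to 19.4 TPM in the static group and 37.8 to 43.9 TPM in the shear stress group. Itga7, a laminin-binding α gene outside the set, is not in this sum. It fell from a mean of 9.82 TPM static to 6.59 TPM under shear stress. The sum of Itga3 and Itga6 varied less between replicates than either gene did under shear stress, since Itga3 was lowest and Itga6 highest in replicate 3. This sum was chosen after its values were seen and has no test.

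Itgav encodes αv, the common partner of β1, β5, β6 and β8 in receptors for RGD ligands. Its level was 15.5, 22.3, 12.4 and 17.9 TPM static and 35.1, 33.5, 28.6 and 36.9 TPM under shear stress. No shear stress library came near the static range. The rise was 1.70-fold (log2 0.76 ± 0.10 SE, edgeR adjusted p = 0.000155). Replicate 2, with the highest static level, had the smallest pair difference in log2 CPM, 0.37, against 0.82 to 0.97 for the other replicates.

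Itgb6 encodes β6, an epithelial subunit known to be low in resting tissue and to be expressed during repair and fibrosis. It was listed with 3, 1, 2 and 8 counts in static replicates 1 to 4 and with 51, 89, 20 and 75 counts under shear stress. In TPM this was between 0.02 and 0.13 static and between 0.39 and 1.65 under shear stress. Static libraries were thus near the limit of counting, and every shear stress library was above all of them. The counts summed to 14 against 235, a ratio of 14.9 at equal TMM-scaled depth with a 95% interval of 8.69 to 27.6 from counting error alone. The fitted log2 difference was 3.88 ± 0.43 SE (edgeR adjusted p = 5.09e-05, for a gene that the filter kept only for its shear stress level), and pair differences ran from 2.24 to 4.75. On the log2(TPM + 1) scale the difference was 0.93 and on log2(TPM + 0.1) 2.77, both called by limma. This was the largest fitted fold of the 9 members, on the smallest number of counts.

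Itgb5 encodes β5, the vitronectin-binding partner of αv. It stood at 47.9, 53.7, 84.2 and 73.0 TPM static and at 50.0, 72.6, 79.1 and 69.0 TPM under shear stress. The ranges overlapped nearly in full. The log2 difference was -0.12 ± 0.10 SE (edgeR adjusted p = 0.300), and 1 of 4 pairs was higher under shear stress. It was called lower only in the blocked fit without replicate 2 (log2 -0.22, adjusted p = 0.0478). Among the β genes that pair only with αv, Itgb5 thus made up 99.9 ± 0.0646% of the summed TPM of Itgb5 and Itgb6 in the static group and 98.4 ± 0.763% in the other (SD, n = 4).

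Promoter windows are shown for the 3 members with the largest fitted rises, Itgb6, Itga2 and Itga3, because these moved in the same direction. The windows come from RefSeq (GRCm38.p6), in which 9 of the 10 listed genes had an entry, Itgb8 among them and Itga6 not, with 11 windows of 250 bases before a start site. Each is printed 5′ to 3′ on the minus strand, without bases that lie in an annotated exon or in the RefSeq span of the gene. Capitals mark matches on either strand to CAGAC, the core of the SMAD element, or to GGGCGG, the GC box.
Itga3, chr11:95076845-95076964: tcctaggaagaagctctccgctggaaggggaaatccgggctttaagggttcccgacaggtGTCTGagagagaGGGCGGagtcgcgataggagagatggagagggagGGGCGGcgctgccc
Itga2, chr13:114932101-114932350: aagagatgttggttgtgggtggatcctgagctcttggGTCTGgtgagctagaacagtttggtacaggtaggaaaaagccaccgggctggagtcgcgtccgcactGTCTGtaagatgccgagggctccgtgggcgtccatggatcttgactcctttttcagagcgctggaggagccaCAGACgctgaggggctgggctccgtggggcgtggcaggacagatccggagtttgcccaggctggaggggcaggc
Itgb6, chr2:60722644-60722853: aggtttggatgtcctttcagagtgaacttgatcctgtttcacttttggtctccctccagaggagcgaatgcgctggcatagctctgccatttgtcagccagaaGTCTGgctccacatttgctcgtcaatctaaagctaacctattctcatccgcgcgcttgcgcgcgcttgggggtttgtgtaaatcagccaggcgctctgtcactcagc
The Itga2 window held 3 matches to CAGAC, 213, 146 and 74 bases before the start, while the Itga3 and Itgb6 windows held 1 each. The Itga3 window held GC boxes 178, 144 and 35 bases before the start, the last in a stretch that is not printed. Over the 11 windows, 6 held CAGAC, that of Itgb8 included, which 42.2% of all 32851 windows did, and 5 held GGGCGG, which 32.7% of all did. The AP-1 letters TGANTCA were in none of the 11 and in 6.75% of all windows. The TEAD letters GGAATG were in 1 of the 11, that of Itgb1, and in 12.6% of all. The CArG box was in 1, a start inside the Itgb6 gene, and in 1.47% of all. The SMAD and GC box letters do not overlap each other in these windows, and a match describes the letters alone.

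Itga2 encodes α2, a collagen receptor with β1. Its level was 1.12, 0.80, 0.16 and 0.58 TPM in the static libraries and 4.61, 2.31, 0.73 and 1.08 TPM in the shear stress libraries. In both groups replicate 1 was highest and replicate 3 lowest, and the group ranges overlapped. Within pairs the log2 CPM differences were 1.82, 1.29, 1.78 and 0.67, all higher under shear stress. The rise was 2.65-fold with the block (log2 1.41 ± 0.22 SE, edgeR adjusted p = 0.000369). The unblocked fit gave log2 1.49 ± 0.68 SE and did not call it (adjusted p = 0.0972). On the log2(TPM + 1) scale the difference was 0.81. The counts behind these values were between 12 and 106 static and between 59 and 403 under shear stress.

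Itga1 encodes α1, the other collagen receptor of the set. It stood at 1.35, 1.49, 1.63 and 1.51 TPM static and at 1.18, 0.97, 2.89 and 1.66 TPM under shear stress. The static libraries were close together, and shear stress replicate 3 was high while replicates 1 and 2 were below every static library. The log2 difference was -0.18 ± 0.22 SE (edgeR adjusted p = 0.505). Pair differences went in both directions, from -0.82 to 0.52. Pelo, a gene for a ribosome rescue factor that lies within Itga1 on the same strand, stood at 24.9 ± 3.08 TPM static and 29.9 ± 2.11 TPM under shear stress (SD, n = 4). Pelo had between 381 and 511 counts in each library and Itga1 between 68 and 195. How overlapping reads were divided does not appear in the sources used here, so the Itga1 level is uncertain.

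In replicate 3 the shear stress library had the lowest Itga2 and the highest Itga1 and Itga6 of its group. The summed collagen-binding α level was between 1.79 and 2.47 TPM static and between 2.74 and 5.79 TPM under shear stress.

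Itga5 encodes α5, which forms the main fibronectin receptor with β1. It stood at 12.9, 18.8, 22.7 and 12.9 TPM static and at 15.1, 21.6, 18.7 and 21.6 TPM under shear stress. The static range enclosed all shear stress values. The log2 difference was -0.01 ± 0.16 SE (edgeR adjusted p = 0.962). The pair differences were 0.03 and -0.01 for replicates 1 and 2, -0.58 for replicate 3 and 0.53 for replicate 4, so pairs 3 and 4 went in opposite directions.

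Itgb1 encodes β1, the shared partner of the α subunits in the set. It stood at 143, 202, 135 and 168 TPM in the static libraries and at 174, 242, 187 and 217 TPM in the shear stress libraries. Each shear stress library was above the static one of its number, and the group ranges overlapped. With TMM factors the log2 difference was 0.11 ± 0.06 SE and was not called (edgeR adjusted p = 0.135). Pair differences in log2 CPM were small, from 0.05 to 0.17. When libraries were scaled by their totals, the median of all genes moved to 0.22 and the log2 difference of Itgb1 to 0.34, which passed (edgeR adjusted p = 0.000997). Relative to that median Itgb1 again differed little. The calls of Itga2, Itga3, Itga6, Itgav and Itgb6 were higher under every scaling of the blocked fit. The signs of Itga1, Itga5 and Itgb5 turned positive under library totals, with none of the 3 called.

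**Figure D2:**
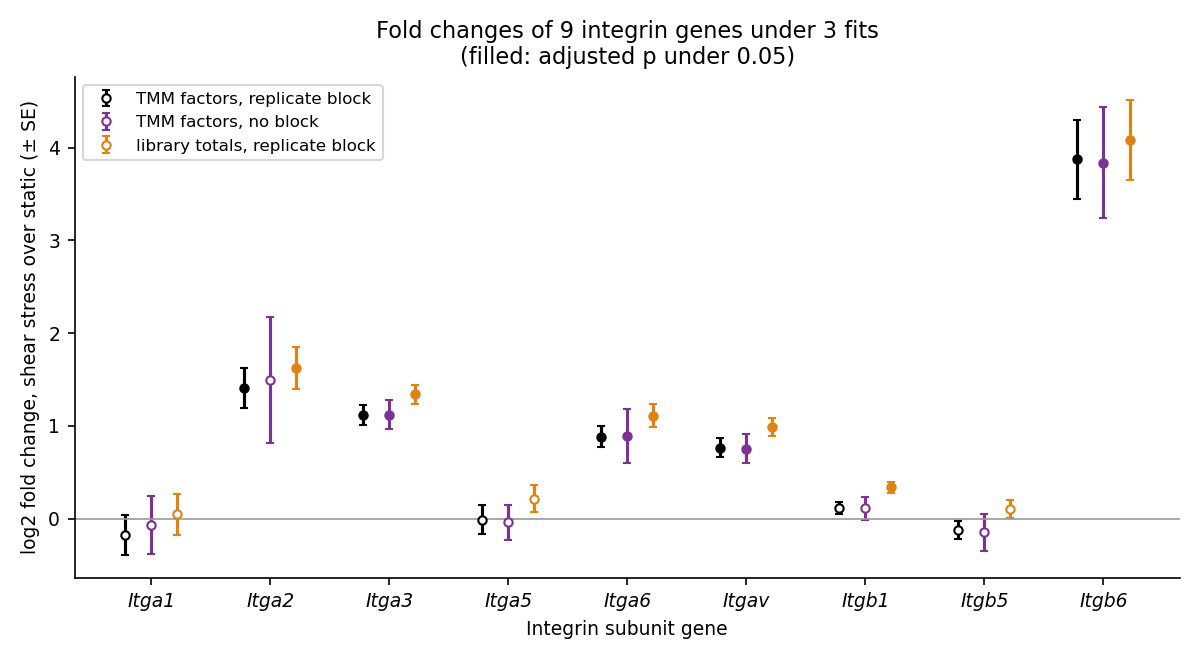
Log2 fold change of shear stress over static for each of the 9 integrin genes, with bars of 1 SE, under TMM factors with the replicate block, TMM factors without it and library totals with it. Filled points have an adjusted p under 0.05: Itga3, Itga6, Itgav and Itgb6 are filled under all 3, Itga2 under both fits with the block and Itgb1 under library totals alone.

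In the order of levels, Itgb1 was highest in both groups, at 162 ± 29.9 TPM static and 205 ± 30.4 TPM under shear stress (SD, n = 4), followed by Itgb5 at 64.7 ± 16.8 and 67.7 ± 12.5 TPM. In static libraries Itgav and Itga5 came next with overlapping ranges, then Itga3, Itga6, Itga1, Itga2 and Itgb6, with no overlap between any other neighbours. Under shear stress the order after Itgb5 was Itgav, Itga3, Itga5 and Itga6, and each of these overlapped its neighbour. Itga3 was below Itga5 in every static library and above it in every shear stress library. The ratio of Itga3 to Itga5 TPM was between 0.373 and 0.907 static and between 1.11 and 1.98 under shear stress. A gap separated Itga6 from Itga2, Itga1 and Itgb6, which overlapped one another at the bottom.

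The composition of α subunit RNA was taken as each gene's share of the summed TPM of the 6 α genes. Itga5 made up 27.2, 31.4, 42.5 and 24.7% in static replicates 1 to 4 and 15.1, 22.5, 19.7 and 21.2% in the shear stress replicates. Every shear stress share was below every static one, although the level of Itga5 itself did not pass the test. The mean was 31.4 ± 7.85% static and 19.6 ± 3.20% under shear stress (SD, n = 4). Permuting the libraries (two-sided, exact, without regard to replicate pairs) gave p = 0.0286, the smallest that 4 against 4 allows. After Benjamini-Hochberg adjustment over the 7 shares tested it was 0.1, which did not pass. Itga3 took 19.5 ± 2.75% static and 26.8 ± 3.43% under shear stress (SD, n = 4), higher in 4 of 4 pairs (exact permutation p = 0.0571, adjusted 0.133). Itgav took 31.8 ± 6.09% and 34.1 ± 2.63% (SD, n = 4; exact permutation p = 0.629). Itga6 took 13.2 ± 3.96% and 15.5 ± 5.91% (SD, n = 4; exact permutation p = 0.6). Itga1 and Itga2 took the smallest mean shares, 2.82% and 1.28% static and 1.72% and 2.21% under shear stress. The share of Itgb5 among the αv-only β genes gave exact permutation p = 0.0286 and 0.1 after adjustment. With only Itgb5 and Itgb6 in that sum, this share mirrors the share of Itgb6 and is no separate result.

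The summed TPM of the 6 α genes was 53.2 ± 5.14 static and 98.1 ± 3.32 under shear stress (SD, n = 4), while Itgb1 differed far less. This sum leaves out α genes outside the set, such as Itga7, which fell. The ratio of Itgb1 to summed α TPM was 3.03, 3.37, 2.52 and 3.22 in the static libraries and 1.74, 2.51, 1.98 and 2.13 in the shear stress libraries. Static replicate 3 and shear stress replicate 2 met at the edge, and all other static libraries were above all shear stress libraries. This ratio uses levels within a library and does not change with the scaling between libraries. It was chosen after its values were seen and has no test.

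**Figure D3:**
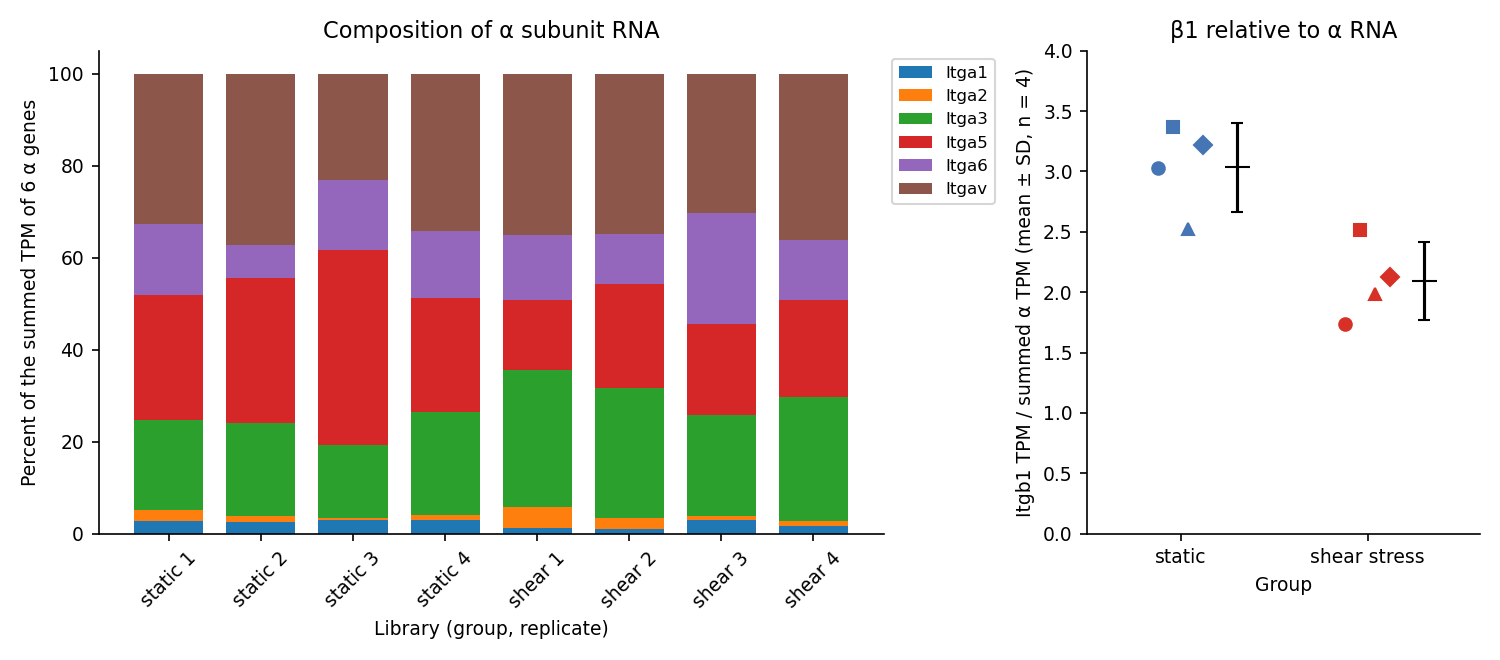
Left, percent of the summed TPM of 6 α genes taken by each gene in each of the 8 libraries. Right, Itgb1 TPM divided by the summed α TPM per library, with the mean and SD of 4 libraries beside the points. The Itga5 band covers 24.7 to 42.5% in the static group and 15.1 to 22.5% in the shear stress group, and the ratio averages 3.03 and 2.09.

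Among the members with a mean of at least 1 TPM in both groups, Itga3 had the largest called rise. The genes with the nearest profile were Rad1, a subunit of a DNA damage checkpoint clamp, Vipas39, a vesicle sorting factor, and Cdk7, a kinase of the cell cycle and transcription. Their root mean square distances to Itga3 in centred log2 CPM over the 8 libraries were 0.102, 0.119 and 0.139, where the median over 9336 genes was 0.653. Of the other members Itgav was nearest, at 0.207, and Itga6 stood at 0.573. No member fell with a call, so no profile was compared for a fall.

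Of the 16 other integrin subunit genes in the files, 6 were tested with edgeR, of which 4 fell and none rose (5 lower and 0 higher at an unadjusted p under 0.05). Of these 4, Itgam and Itgax passed the filter through the static libraries alone, and 2 of the other 4 tested genes fell. Over all tested genes 31% fell and 30.1% rose. Without the filter on low counts 1 of the other subunits was called higher and 6 lower by edgeR, DESeq2 and limma. Itga7, the laminin-binding subunit known from muscle, fell by 0.76 ± 0.12 on the log2 scale, from 9.82 ± 2.74 to 6.59 ± 1.14 TPM (SD, n = 4; edgeR adjusted p = 0.000470). Itga2b, the platelet subunit αIIb, fell by 0.84 ± 0.20 on the log2 scale, from 2.03 ± 0.325 to 1.33 ± 0.197 TPM (SD, n = 4; edgeR adjusted p = 0.00412). The platelet marker list, which includes Itga2b, summed to between 2.04 and 2.91 TPM static and between 1.13 and 1.75 TPM under shear stress. Most of this sum was Itga2b itself, the only tested gene of the list, so it is no separate result. Itga9, for the α9 subunit known from hepatocytes, was between 0.04 and 0.22 TPM in these libraries and was not tested.

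Itgam and Itgax encode the leukocyte subunits αM and αX. Itgam had 175, 143, 76 and 75 counts in static replicates 1 to 4 and 0, 0, 3 and 1 under shear stress. Itgax had 224, 131, 140 and 71 counts static and 1, 0, 2 and 0 under shear stress. Both were thus present in every static library and at or near 0 in every shear stress library. At equal TMM-scaled depth the ratio of summed counts, static over shear stress, was 132 for Itgam (95% counting interval 51.4 to 488) and 213 for Itgax (72.5 to 1036). Both fell in the edgeR test, with adjusted p = 6.24e-06 and 9.91e-07, as genes that the filter kept only for their static level. Itgad, for αD, had 35 counts over the static libraries and 0 over the shear stress libraries. Set against a floor of 3 counts over the group, this was 13.2-fold lower. With counting error in both groups the lower 95% limit of that fold was 10.2.

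Itgb2 encodes β2, the only known partner of these α subunits. It had 0 counts in all 4 static libraries and 7, 6, 7 and 3 in the shear stress libraries, so the β gene and the α genes were found in opposite groups. The Kupffer cell markers other than Cd68 stayed below 1 TPM in every library. The sum of the lymphocyte and granulocyte markers was 3.04 to 5.47 TPM static, mostly from Cd79a, and 0.03 to 1.57 TPM under shear stress. Cd79a, a B cell receptor component, had 123 counts over the static and 9 over the shear stress libraries (log2 -3.96, edgeR adjusted p = 0.000538), and Ptprc, the leukocyte antigen CD45, had 30 and 1. The other markers of that list in the files did not fall: static and shear stress counts were 3 and 3 for Cd8a, 2 and 2 for S100a8 and 0 and 1 for Ms4a1. Whether leukocytes had a part in the fall of Itgam and Itgax was not tested. Itgam, Itgax and Itgad lie next to each other on the plus strand of chromosome 7 in GRCm38 (128062640 to 128118491 for Itgam, 128129547 to 128150657 for Itgax and 128154376 to 128223816 for Itgad). Trim72, a membrane repair gene before Itgam on the same strand, had 117, 86, 56 and 81 counts static and 3, 18, 4 and 6 under shear stress. What links these neighbours was not tested.

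**Figure D4:**
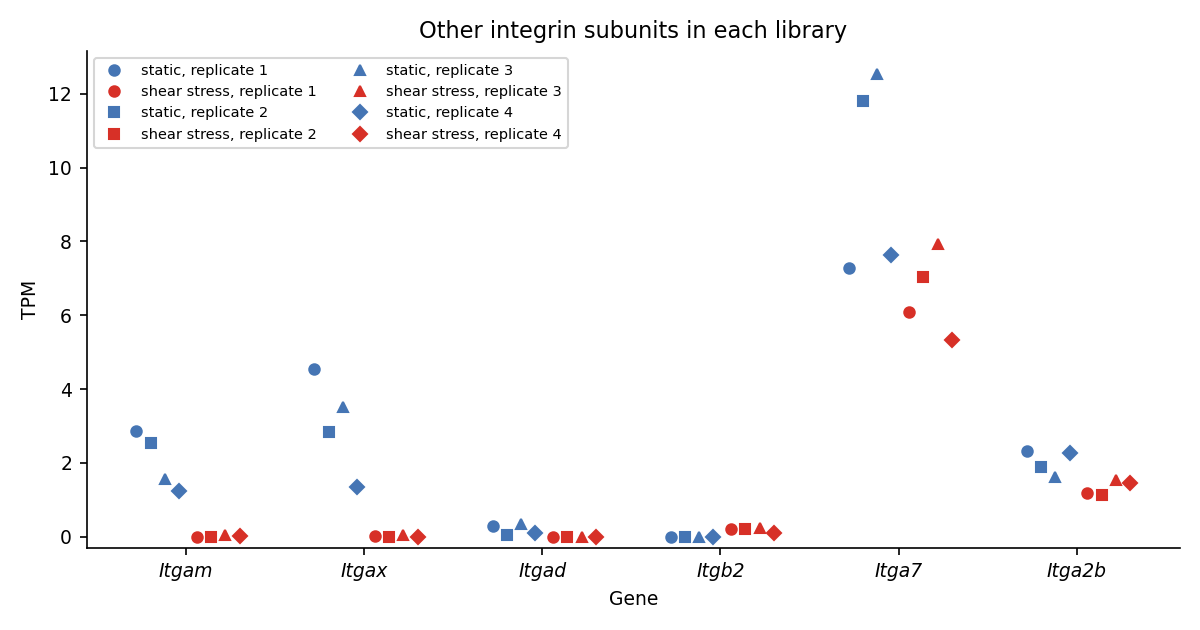
Level in TPM of 6 other integrin genes in each of the 8 libraries, with the replicates of each group side by side. Itgam and Itgax stand at or above 1.23 TPM in static libraries and at or below 0.06 TPM under shear stress, Itgb2 is at 0 in the static libraries, and Itga7 and Itga2b differ by less.

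The ligands of the integrins, and the other genes below, were read from lists of genes. In the same fit 30.1% of all tested genes rose and 31% fell, and without the block 24.9% and 23.7% did. Counts near these shares do not set a list apart. Of 5 tested laminin chains, 2 rose and 2 fell. Lamb3, the β chain of laminin-332, went from 0.370 ± 0.184 to 1.94 ± 1.03 TPM (SD, n = 4; log2 2.16 ± 0.23 SE, edgeR adjusted p = 3.86e-05). Lama3, the α chain of the same laminin, fell by 0.87 ± 0.22 on the log2 scale and Lama5 by 0.90 ± 0.20 (edgeR adjusted p = 0.00594 and 0.00292). Lama3 and Lama5 were not called without the block (adjusted p = 0.144 and 0.195), where 1 laminin gene was called higher and none lower. Lamb3 and Lama3 thus moved in different directions in the blocked fit.

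Of 3 collagen genes tested with edgeR, 2 rose and none fell (2 higher and 0 lower at an unadjusted p under 0.05, and 0 lower under every alternative). Col4a1 and Col4a2, the basement membrane collagen chains, rose by log2 1.34 ± 0.11 and 0.94 ± 0.13 SE (edgeR adjusted p = 1.03e-05 and 0.000271). Their ranges overlapped between groups, and without the block neither was called (adjusted p = 0.0530 and 0.239).

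Of 12 tested RGD ligands, 6 rose and 3 fell. Fn1, fibronectin, stood at 173 to 237 TPM in the static group and at 392 to 703 TPM in the shear stress group (log2 1.08 ± 0.07 SE, edgeR adjusted p = 3.85e-06). Thbs1, thrombospondin 1, stood between 0.74 and 2.28 TPM static and between 35.2 and 169 TPM under shear stress (log2 5.89 ± 0.32 SE, edgeR adjusted p = 1.25e-05). Npnt, nephronectin, went from 0.138 ± 0.0403 to 0.738 ± 0.292 TPM (SD, n = 4; log2 2.26, edgeR adjusted p = 0.000128), and passed the filter through the shear stress libraries alone. Vtn, vitronectin, a plasma protein made by hepatocytes, fell by 0.59 ± 0.06 on the log2 scale (edgeR adjusted p = 2.45e-05), in the direction of 7 of the 8 hepatocyte markers. The ligand shared by α5β1 and αvβ1 thus rose, while the main ligand of αvβ5 fell.

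Of 18 tested talin, kindlin and adhesion adaptor genes, 9 rose and 3 fell. Parvb, 1 of the 9, passed the filter through the shear stress libraries alone, and 8 of the other 17 rose. Fermt1, kindlin-1, an integrin activator of epithelia, was between 0 and 0.19 TPM static and between 2.29 and 5.66 TPM under shear stress (log2 5.43 ± 0.35 SE, edgeR adjusted p = 3.21e-06). Fermt2, kindlin-2, the more abundant form, went from 98.2 ± 28.2 to 209 ± 37.8 TPM (SD, n = 4; log2 0.89, edgeR adjusted p = 1.83e-05). Lims1, the PINCH adaptor of integrin-linked kinase, rose by log2 1.52 ± 0.10 SE, and Tns1, tensin 1, which binds β tails and actin, by log2 1.38 ± 0.08 SE (edgeR adjusted p = 4.12e-06 and 2.55e-06). For each of these 4 genes, named for their small adjusted p, the groups did not overlap. Of all tested genes 23.7% were apart and higher. Fermt1 was above the filter on low counts in 1 static library and in 4 shear stress libraries, so it was kept for its shear stress level.

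Of 14 tested adhesion kinases and scaffolds, 5 rose and 5 fell. Src, the kinase that acts with focal adhesion kinase, rose by log2 1.04 ± 0.10 SE (edgeR adjusted p = 2.15e-05). Crk, Crkl and Git1, scaffolds downstream of the kinases, fell by 0.66, 0.80 and 0.68 on the log2 scale (edgeR adjusted p = 0.000216, 0.000146 and 0.000211). Ptk2, focal adhesion kinase, and Ptk2b, its close relative PYK2, were singled out after their values were seen. Ptk2 fell by 0.26 ± 0.09 on the log2 scale (edgeR adjusted p = 0.0337, and 0.0641 without the block), while Ptk2b went from 10.6 ± 6.56 to 58.6 ± 7.28 TPM (SD, n = 4; log2 2.42, edgeR adjusted p = 0.000617).

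Of 11 tested integrin inactivators, 4 rose and 2 fell. Dab2, an endocytic adaptor of β1, rose by log2 1.42 ± 0.25 SE (edgeR adjusted p = 0.000790). Cd300a, an inhibitory receptor known from leukocytes, went from 0.0800 ± 0.0455 to 0.995 ± 0.131 TPM (SD, n = 4; edgeR adjusted p = 0.000131), and also passed the filter through the shear stress libraries alone. Itgb1bp1, ICAP-1, which binds the β1 tail in place of talin and kindlin, fell by 0.63 ± 0.12 on the log2 scale (edgeR adjusted p = 0.00110).

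Of 13 tested membrane partners, 4 rose and 2 fell, and without the block 4 rose and none fell. The 2 lower genes, named after their values were seen, were the tetraspanins Cd9 and Cd81 (log2 -0.25 and -0.22, edgeR adjusted p = 0.0257 and 0.0223, and 0.328 and 0.330 without the block). Cd151, the tetraspanin bound to α3β1 and α6β1, went from 103 ± 16.4 to 175 ± 19.7 TPM (SD, n = 4; log2 0.53, edgeR adjusted p = 0.000215). The syndecans Sdc4 and Sdc1, matrix receptors that act beside integrins, rose by log2 0.52 and 0.58, and Cav1, caveolin 1, by 2.07 (edgeR adjusted p = 0.000430, 0.00767 and 0.000307). Cav1 was above the filter in 1 static library and in 4 shear stress libraries, so it was kept for its shear stress level. Of 13 tested trafficking genes, 3 rose and 5 fell. Snx17, which returns β1 integrins from endosomes to the surface, rose by log2 1.05 and Rab11fip1, a recycling effector, by 0.87 (edgeR adjusted p = 0.000241 and 0.000216). Numb, a clathrin adaptor for integrin uptake, fell by 0.95 on the log2 scale, and Rab21, which binds α tails, by 0.46 (edgeR adjusted p = 5.65e-05 and 0.00187).

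The latent TGF-β list holds the TGF-β genes and proteins assigned to latent complexes. The αvβ6 and αvβ8 integrins are known to act on such complexes only where the propeptide has an RGD motif. Which listed genes encode that motif was not examined, and a link between this list and Itgb6 was not tested. Of 4 tested genes, 2 rose and 2 fell. Tgfb2 stood between 1.05 and 2.60 TPM static and between 5.35 and 11.2 TPM under shear stress (log2 2.17 ± 0.21 SE, edgeR adjusted p = 4.12e-05). Ltbp2, a matrix protein of the latent TGF-β binding family, was between 0 and 0.18 TPM static and between 0.57 and 4.56 TPM under shear stress (log2 5.01 ± 0.35 SE, edgeR adjusted p = 4.37e-06). Ltbp2 was above the filter in 1 static library and in 4 shear stress libraries, so it was kept for its shear stress level. Tgfb1 fell by 1.07 ± 0.23 on the log2 scale and Nrros, which anchors latent TGF-β1 on leukocytes, by 0.55 ± 0.14 (edgeR adjusted p = 0.00260 and 0.00542). Neither was called without the block (adjusted p = 0.0517 and 0.149).

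**Figure D5:**
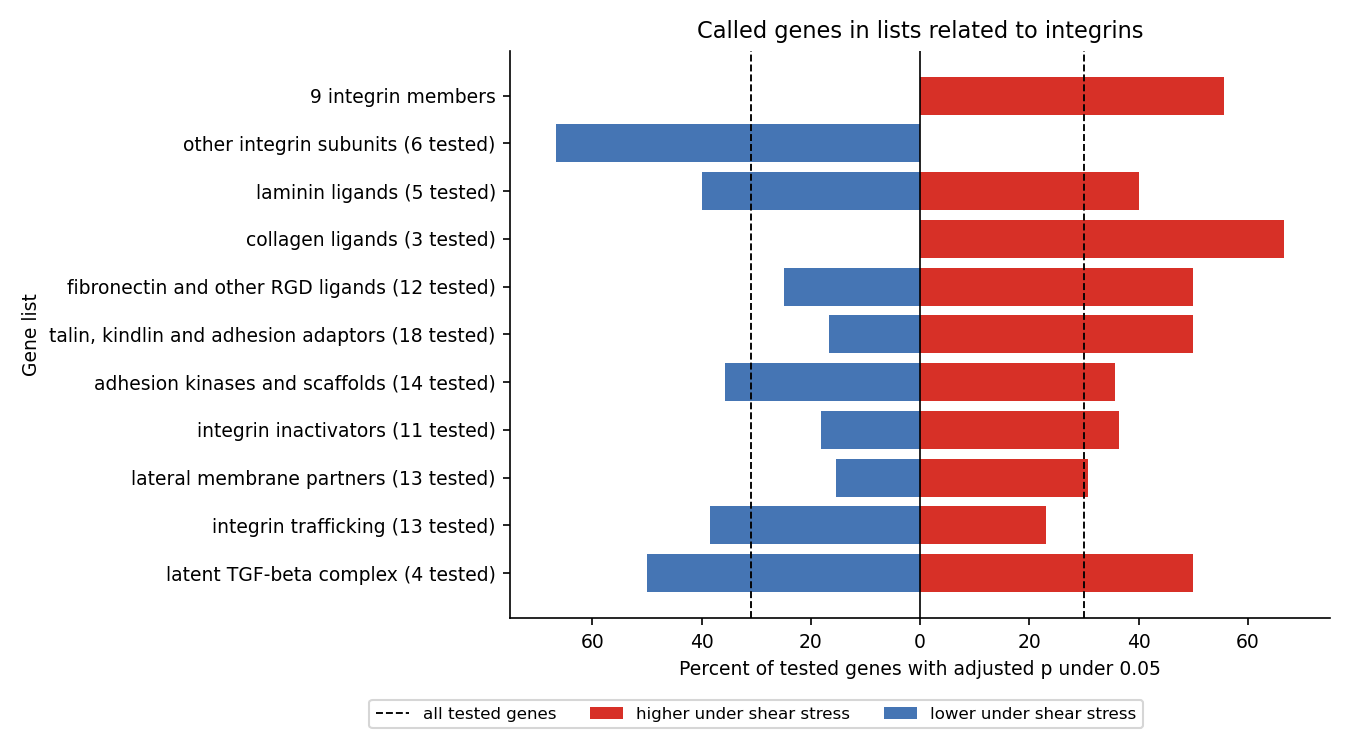
Percent of tested genes called higher (right) and lower (left) with an adjusted p under 0.05 in the integrin set and in 10 related lists, with dashed lines at the 30.1% and 31% of all tested genes. The integrin set has 5 of 9 genes higher and none lower, the other integrin subunits have 4 of 6 lower and none higher, and several lists of few genes lie on both sides.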

How the data were processed

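Hepatocyte RNA was measured in 8 libraries. Members and gene lists were chosen with earlier results of these data known. TRIzol-extracted total RNA was sequenced on DNBSEQ, per the labels. HISAT, Bowtie2 and RSEM and build GRCm38 come from the submitters' processing notes. The annotation and the use of read strand do not appear in the sources used here. The deposited read counts are not all whole, and are expected counts in the form that RSEM gives. The TPM values are the authors' own, deposited beside the counts. FPKM was not used.

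Expected counts were rounded, filtered with filterByExpr and tested with edgeR 4.0.16 (quasi-likelihood F test, TMM factors, Benjamini-Hochberg over 11747 genes, threshold 0.05) in R 4.3.3. Standard errors were taken as |log2 fold change|/√F. The replicate number from the titles was a block: same-numbered libraries deviated together from their group means (r = 0.679, 0.642, 0.560 and 0.467 over 8446 genes), and no other pair did. What a number stands for is not given. On simulated counts for 11747 genes with 200 changed, 58.3% of 1.5-fold changes were recovered, as were 81.1% at 2-fold and 97% at 4-fold, with 9.14% false calls. In the data 61.1% of tested genes were called, far more than the simulation changed, so these rates need not hold here. Named genes are all members, and of each list up to 4 called genes with the smallest adjusted p; some of these are not reported here. For the called member with the largest rise, with at least 1 TPM in both groups, the 3 nearest profiles are named. Itga9, Itgb2, Itgb4, Itgad, Ptk2, Ptk2b, Trim72 and Pelo were named after their values were seen. Alternatives were other scalings, no filter, no block, DESeq2 1.42.0, limma 3.58.1 on log2(TPM + 1) or log2(TPM + 0.1), and left-out replicates.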

Additional observations from a re-analysis of the deposited data

Results flagged for a closer look

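Of 120 groups of 4 libraries examined, 3 had a library far from the other 3, where chance gives about 6. The Itga6 share of summed α TPM was 7.25% in static replicate 2 and between 14.6 and 15.5% in the other static libraries. The summed Itga3 and Itga6 level was 19.35 TPM in static replicate 4 and between 16.48 and 16.6 TPM in the other static libraries. Crk stood at 37.51 TPM in shear stress replicate 1 and between 46.56 and 48.06 TPM in the other shear stress libraries.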

How the results depend on the processing

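The rises of Itga3, Itgav and Itgb6 were called under all 21 alternatives, and their log2 differences with replicates left out ran from 1.01 to 1.23, 0.64 to 0.91 and 3.35 to 4.57. Itga6 ran from 0.64 to 1.06, and without the block it lost its call at 0.95 without static replicate 1 and at 0.64 without shear stress replicate 3. Without the replicate block Itga2 was at 1.49 (edgeR adjusted p = 0.0972) and 4 members were called in place of 5; with replicates left out Itga2 ran from 0.78 to 1.90, and without the block it was called only without shear stress replicate 3, and not called at 1.90, 1.54, 1.18 and 1.44 without static replicates 1 to 4 or at 0.78, 1.52 and 1.72 without shear stress replicates 1, 2 and 4. The block changed no other member's call. Itgb1 was called at 0.25 under upper quartile factors, at 0.34 under library totals and at 0.34 under each of the 3 TPM fits, and ran from 0.04 to 0.18 with replicates left out. Itga1 turned to 0.048 under library totals, 0.051 for log2(TPM + 1) with or without the filter and 0.042 for log2(TPM + 0.1). With pairs left out it ran from -0.43 to 0.048, and in the unblocked fits from -0.45 to 0.14, with 0.068 and 0.14 without shear stress replicates 1 and 2. Itga5 turned to 0.13 under upper quartile factors, 0.22 under library totals, 0.21 for log2(TPM + 1) with or without the filter and 0.22 for log2(TPM + 0.1), and ran from -0.19 to 0.18, with 0.16 without static replicate 3 and 0.063 without shear stress replicate 1 in the unblocked fit. Itgb5 turned to 0.015 under upper quartile factors, 0.10 under library totals, 0.081 for log2(TPM + 1) with or without the filter and 0.082 for log2(TPM + 0.1). With pairs left out it ran from -0.22, when it was called, to -0.050, and in the unblocked fits from -0.26 to 0.00089. None of these 3 was called under another scaling. The cause of these changes was not tested. Of all calls 49.2% were higher; this share was 61.7% under upper quartile factors, 68.9% under library totals and 69.7, 69.8 and 68.0% in the TPM fits, in which the median of all genes moved to 0.13, 0.22, 0.20, 0.22 and 0.05. With replicates left out between 3 and 6 members were called, the 3 without static replicate 1 in the unblocked fit, and between 4660 and 6797 of all genes.

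Counts in the small lists moved by over 1.5 times under some alternatives. Higher calls ranged from 1 to 3 for laminins, 0 to 3 for collagens, 3 to 8 for RGD ligands, 2 to 7 for trafficking, 2 to 4 for latent TGF-β and 0 to 1 for other subunits. Lower calls ranged from 0 to 2 for laminins, 1 to 3 for RGD ligands and adaptors, 3 to 5 for kinases, 1 to 2 for inactivators, 0 to 3 for membrane partners, 2 to 5 for trafficking and 0 to 2 for latent TGF-β. Of the genes named from the lists by the rule, Rab21 lost its call under library totals and for log2(TPM + 1) without the filter, Nrros under library totals and in the 3 TPM fits, and Lama3 and Lama5 for log2(TPM + 1) without the filter, beside the losses without the block. The pseudocount lowers the fold of low genes: Itgb6 was at 0.93 for log2(TPM + 1) with or without the filter and at 2.77 for log2(TPM + 0.1), and Itga2 at 0.81 for log2(TPM + 1). The settings chosen after seeing the data, CPM in place of TPM and each library left out, kept the ratio of Itgb1 to α RNA lower under shear stress. Itgb6 rests on 14 static counts in all, which limits its fold.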
